A study of Homo sapiens with 13 samples.

Results

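The genes described here encode Mediator, RNA polymerase II (Pol II) and the general transcription factors that assemble with them at promoters. They were taken by symbol from the protein-coding genes of GENCODE version 44: every MED subunit, POLR2A to POLR2M, the genes of TFIIA, TFIIB, TFIIE and TFIIF, 5 core subunits of TFIIH, and TBP. The rule found 56 of 20033 genes, with 30 in Mediator, 13 in Pol II and 13 among the general factors. No measured value entered the rule, though it was chosen with earlier results of these data known.

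Pol II makes the messenger RNA of protein-coding genes and cannot find a promoter unaided. TBP bends the promoter DNA, TFIIA and TFIIB hold it there, TFIIF brings in the polymerase, and TFIIE and TFIIH open the strands and start the enzyme. Mediator bridges DNA-bound activators and this assembly, through head, middle and tail modules and a kinase module that comes and goes.

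The study asked where PTBP1 and RUNX1 sit on chromatin in MOLM-13 cells, a line grown from a human acute myeloid leukemia. PTBP1 controls splicing by attaching to stretches of C and U in RNA. RUNX1 is a DNA-binding regulator of blood cell development. The series held 13 libraries: CUT&Tag for PTBP1 and RUNX1 with 2 libraries each and for IgG with 1, and CUT&Run for PTBP1, RUNX1, H3K27me3 and IgG with 2 each. In both assays an antibody directs an enzyme to cut the DNA near its target; no treatment or genetic change is given for any group, and all groups are the same cell line.

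The values below come from 1 list of peaks for PTBP1 and 1 for RUNX1, with 9370 and 7688 peaks. A peak is a stretch where fragments pile up above background. Its fold enrichment is the fragment count at its highest base, the summit, plus 1, divided by the background plus 1. The median over each whole list was 12.2 for PTBP1 and 15.0 for RUNX1. There was 1 list per target, so no value has a replicate error and none was tested; the 95% Poisson intervals given for fragment counts cover counting error only. Each gene was represented by its transcription start site (TSS), taken as the 5′ end of the annotated gene, and a peak counted at the TSS when any of it came within 1000 bases.

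Among the 56 genes, 24 carried a PTBP1 peak at the start site (42.9%), against 26.4% of all protein-coding genes. RUNX1 peaks were found at 15 (26.8%), against 21.3%. The 2 lists met at 13 TSSs (23.2%, against 17.3% of all genes). PTBP1 alone was found at 11 (19.6%, against 9.05%), RUNX1 alone at 2 (3.57%, against 3.98%) and neither at 30 (53.6%, against 69.7%). Of the 24 genes with PTBP1, 13 also had RUNX1 (54.2%), against 65.7% of all genes with PTBP1 at the TSS. The higher share was thus in PTBP1 peaks, most of all in those without RUNX1.

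Many of these genes shared their start region with a neighbor. Another protein-coding gene started within 1000 bases of 21 of the 56 (37.5%), against 17.4% of all genes, and for 20 of the 21 a neighbor ran on the opposite strand. PTBP1 was found at 15 of these 21 TSSs (71.4%), against 48.3% of all genes with such a neighbor. It was found at 9 of the 35 without one (25.7%), against 21.8%. For RUNX1 the shares were 9 of 21 (42.9%, against 37.3%) and 6 of 35 (17.1%, against 17.9%). The PTBP1 share among the genes without another coding start within 1000 bases was therefore near that of all such genes. Starts of other gene types were not counted, though MED10, MED11, MED13, GTF2A1 and GTF2F1, all with PTBP1, had such a start there. So did MED14, with RUNX1 alone, and MED16, MED28 and GTF2H4, with neither peak at the TSS. Which gene of a pair a peak belongs to was not tested. For 7 of the 24 PTBP1 peaks and 2 of the 15 RUNX1 peaks another coding gene started nearer the summit, among them ZBTB4 for POLR2A, PAF1 for MED29 and EIF2B1 for GTF2H3. The PTBP1 peaks include that of MED26, where the nearer start is also that of its own canonical transcript.

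**Figure D1:**
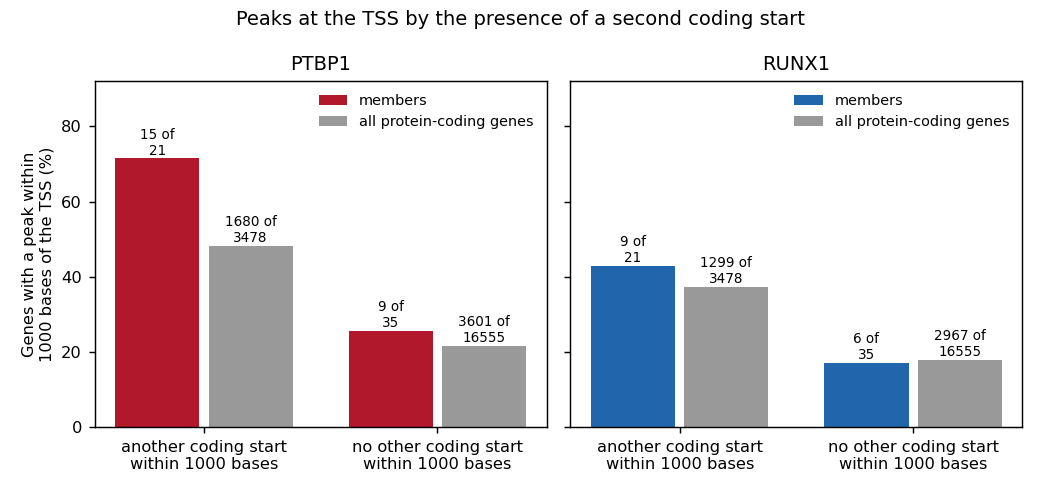
Percent of genes with a PTBP1 (left) or RUNX1 (right) peak within 1000 bases of the TSS, for the 56 genes (colored) and all 20033 protein-coding genes (gray), split by whether another coding gene starts within 1000 bases; the labels give counts. The colored bar for PTBP1 stands at 71.4% beside a neighboring start and at 25.7% without one.

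The counts of Mediator, Pol II and the general factors stand beside the same shares of all genes, 26.4% for PTBP1 and 21.3% for RUNX1. PTBP1 was at 10 of 30 Mediator genes (33.3%), 8 of 13 Pol II genes (61.5%) and 6 of 13 general factor genes (46.2%), and RUNX1 at 5 (16.7%), 5 (38.5%) and 5 (38.5%). Mediator was thus nearest to all genes for PTBP1 and below them for RUNX1, and no difference between the complexes was tested.

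**Figure D2:**
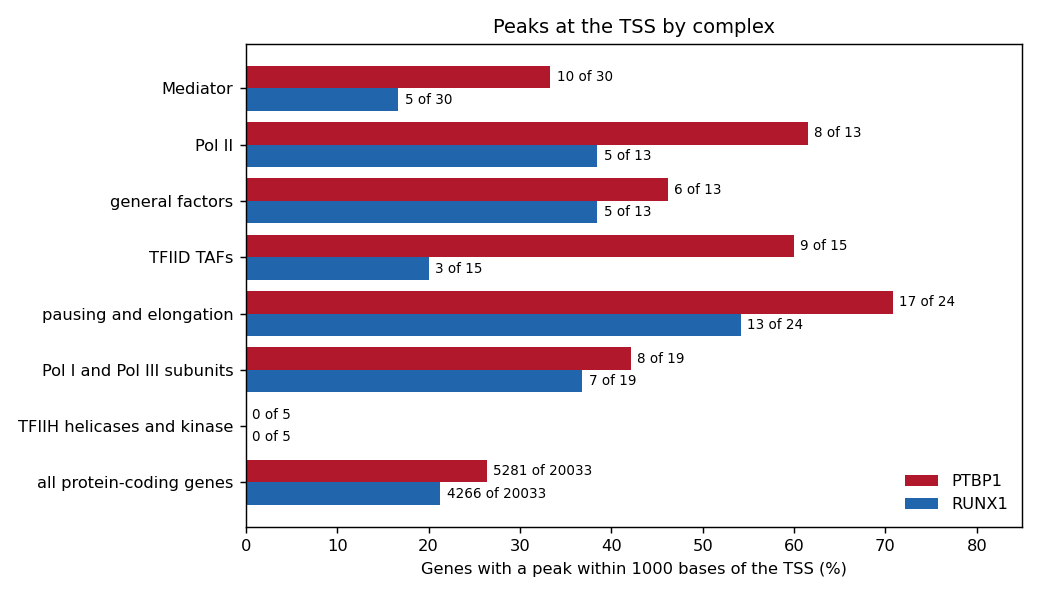
Percent of genes in each complex with a PTBP1 (red) or RUNX1 (blue) peak within 1000 bases of the TSS, with the counts beside the bars. The PTBP1 bars stand at 61.5% for Pol II, 70.8% for the pausing and elongation factors and 26.4% for all genes, and the 5 TFIIH helicase and kinase genes have no peak.

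The 4 promoters below show 1 gene of each class, from 250 bases before to 50 bases after the RefSeq start, in the gene's own direction (RefSeq, GRCh38.p14). Capitals mark the 11 bases centered on each summit. They are TBP (chr6:170554119-170554418, plus strand), with summits of both lists; POLR2E (chr19:1095326-1095625, minus strand), with PTBP1 alone; GTF2A2 (chr15:59657466-59657765, minus strand), with RUNX1 alone; and POLR2D (chr2:127858106-127858405, minus strand), with no peak.
TBP: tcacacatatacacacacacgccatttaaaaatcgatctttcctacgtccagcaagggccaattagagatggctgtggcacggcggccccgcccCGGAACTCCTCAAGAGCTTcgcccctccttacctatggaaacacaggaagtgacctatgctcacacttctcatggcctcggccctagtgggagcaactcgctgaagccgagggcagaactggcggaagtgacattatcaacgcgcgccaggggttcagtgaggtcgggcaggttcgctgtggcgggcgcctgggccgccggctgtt
POLR2E: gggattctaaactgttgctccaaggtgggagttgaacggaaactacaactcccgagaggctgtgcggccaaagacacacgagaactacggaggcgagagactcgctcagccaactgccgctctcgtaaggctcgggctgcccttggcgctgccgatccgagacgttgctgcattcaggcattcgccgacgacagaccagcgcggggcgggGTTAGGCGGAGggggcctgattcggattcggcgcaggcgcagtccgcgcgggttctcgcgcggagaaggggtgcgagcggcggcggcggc
GTF2A2: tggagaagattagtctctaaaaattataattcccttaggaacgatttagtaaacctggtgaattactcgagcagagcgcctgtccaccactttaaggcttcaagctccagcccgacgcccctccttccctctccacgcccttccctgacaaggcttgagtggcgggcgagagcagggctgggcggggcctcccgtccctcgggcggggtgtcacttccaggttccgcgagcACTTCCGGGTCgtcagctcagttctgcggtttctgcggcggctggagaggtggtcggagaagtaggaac
POLR2D: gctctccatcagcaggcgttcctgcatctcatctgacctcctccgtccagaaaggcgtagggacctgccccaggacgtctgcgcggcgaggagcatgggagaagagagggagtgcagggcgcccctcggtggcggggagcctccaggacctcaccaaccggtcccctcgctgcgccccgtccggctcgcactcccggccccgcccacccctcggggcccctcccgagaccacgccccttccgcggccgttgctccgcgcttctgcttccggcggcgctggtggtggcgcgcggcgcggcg
In TBP the summits lie 8 bases apart, so their capitals run together as 19 bases. The GC content of the 300 bases was 59.0% in TBP, 65.7% in POLR2E, 58.7% in GTF2A2 and 73.7% in POLR2D, so the promoter without a peak was the richest in G and C of the 4.

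The genes of the initiation platform were split. TBP, the subunit of TFIID that contacts the TATA element, carried both peaks. Its PTBP1 peak (hg38 chr6:170553062-170554791) had a fold enrichment of 32.6 from 55 fragments (95% interval 41.4 to 71.6), with the summit 84 bases upstream of the TSS. Its RUNX1 peak (chr6:170553952-170554391) had 12.8 from 16 fragments (9.15 to 26.0), with the summit 76 bases upstream. PSMB1, a proteasome subunit gene, started 995 bases away on the other strand. The megabase of TBP held 30 PTBP1 peaks for 5 coding genes, against 0.468 peaks per coding gene over the genome. The part of this dense stretch in the TBP values was not tested.

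TFIIA, which steadies TBP on DNA, had the strongest values of any general factor. GTF2A1, the large subunit gene, had a PTBP1 fold enrichment of 37.2 from 63 fragments (chr14:81220760-81221508, summit 276 bases downstream), higher than 92.8% of the PTBP1 list. Its RUNX1 peak reached 25.6 from 33 fragments (chr14:81220600-81221484, summit 155 bases downstream). GTF2A2, the small subunit gene, had the highest RUNX1 value of the 56 genes, 39.1 from 51 fragments (38.0 to 67.1), with the summit 12 bases past the TSS (chr15:59657253-59657875). No PTBP1 peak came nearer than 31405 bases to GTF2A2, so the genes of the 2 TFIIA subunits differed in class.

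TFIIB and TFIIE had no peak at the TSS. GTF2B, which links TBP to the polymerase, lay 100562 bases from the nearest PTBP1 peak and 100504 from the nearest RUNX1 peak. GTF2E1, a subunit of the factor that recruits TFIIH, lay 646874 and 183097 bases away, and its partner GTF2E2 lay 69460 and 69392 bases away.

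TFIIF, which escorts Pol II to the promoter, was split. GTF2F1 had a PTBP1 value of 15.7 from 26 fragments (chr19:6392981-6394016, summit 648 bases downstream) and a RUNX1 value of 11.3 from 14 fragments (chr19:6393181-6393861, summit 633 bases downstream). Both summits lay upstream of the canonical transcript, which starts 817 bases downstream of the annotated 5′ end. GTF2F2 was 201620 bases from the nearest PTBP1 peak and 202106 from the nearest RUNX1 peak.

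Of the 5 TFIIH core genes, whose products hold the helicases and take part in DNA repair, 3 had PTBP1 and 1 had RUNX1. GTF2H1 had a PTBP1 value of 13.4 from 22 fragments, with the summit 26 bases past the TSS (chr11:18322215-18322536). GTF2H3 had 12.2 from 20 fragments, 18 bases past it (chr12:123633599-123633881). These 2 had no RUNX1 peak, and HPS5 and EIF2B1 started 97 and 27 bases away on the other strand. GTF2H5 had both, at 11.0 from 18 fragments for PTBP1 (chr6:158167897-158168610, 179 bases downstream) and 8.27 from 10 fragments for RUNX1 (chr6:158168048-158168544, 185 bases upstream), the lowest RUNX1 value of all 15. GTF2H4 lay 190516 bases from PTBP1 and 47340 from RUNX1. GTF2H2 lay 518987 bases from the nearest peak of each list, but GTF2H2C is a near-identical copy, and reads that map to both could have been removed by the mapping filter, so its lack of a peak is uncertain.

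The 13 Pol II genes comprise 5 for subunits the enzyme shares with Pol I and Pol III, 7 for subunits of its own and POLR2M. All 5 shared subunit genes (POLR2E, POLR2F, POLR2H, POLR2K and POLR2L) had PTBP1 at the TSS, and 2 had RUNX1. Of the 7 genes for subunits of Pol II alone, 3 (POLR2A, POLR2B and POLR2I) had both peaks and 4 had neither. These were 42.9%, against 17.3% of all genes, and 57.1%, against 69.7%. With the TSS base required to lie in the peak, PTBP1 was at 2 of the 5 shared subunit genes and 3 of the 7 others. The share of all genes was then 19.9%, and the difference between these groups was not tested. POLR2M, which encodes a regulator that associates with Pol II, had neither.

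POLR2A encodes the largest subunit, with the tail that is phosphorylated during transcription. Its PTBP1 value was 31.4 from 53 fragments (39.7 to 69.3), at a peak (chr17:7483331-7485065) whose summit was 297 bases upstream, nearer to the start of ZBTB4. Its RUNX1 value was 12.0 from 15 fragments (8.40 to 24.7), and that summit (peak chr17:7484013-7484952) lay 455 bases downstream in the coding part of exon 1. The 752 bases between these summits were the longest such distance among the 13 genes with both peaks. POLR2B, the second largest subunit, had 14.0 from 23 fragments for PTBP1 and 10.5 from 13 for RUNX1 (peaks chr4:56977623-56978313 and chr4:56977567-56977931), with the summits 15 bases apart.

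POLR2I, a small subunit that takes part in proofreading, had the highest PTBP1 value of the 56 genes. It was 40.1 from 68 fragments (52.8 to 86.2), above 93.8% of the list, with the summit 112 bases upstream (chr19:36114291-36115791). Its RUNX1 value was 26.3 from 34 fragments (chr19:36114879-36115737), with the summit 56 bases downstream. The counting interval of POLR2I overlapped those of GTF2A1, POLR2E, MED26, TBP, POLR2A, MED8 and MED15, so the order of POLR2I among these was not resolved at this depth.

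Among the shared subunits the PTBP1 values spread widely. POLR2E had 34.9 from 59 fragments (chr19:1094712-1096116), with the summit 30 bases upstream. POLR2K had 7.56 from 12 fragments (6.20 to 21.0; chr8:100150215-100150543, summit 255 bases upstream), the lowest PTBP1 value of all 24, and POLR2F had 10.5 from 17 fragments (chr22:37953544-37953928). The POLR2F summit lay 1045 bases downstream of the annotated 5′ end, just upstream of its canonical transcript, which starts 1092 bases downstream. That summit was also 17 bases from the start of C22orf23. The intervals of POLR2E (44.9 to 76.1) and POLR2K did not overlap. POLR2E also had a second, weaker PTBP1 peak inside the window, at 9.30 from 15 fragments, 1631 bases downstream in intron 2.

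POLR2H and POLR2L were the shared subunits with RUNX1 as well. POLR2H had 16.9 from 28 fragments for PTBP1 and 18.0 from 23 for RUNX1 (peaks chr3:184362664-184363582 and chr3:184362555-184363838), with summits 1243 and 1349 bases downstream in the 5′ UTR of exon 2. POLR2L had 20.9 from 35 fragments for PTBP1 and 12.8 from 16 for RUNX1 (chr11:841833-844194 and chr11:842298-843151), with the summits 236 bases apart.

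The Pol II genes with neither peak were POLR2C, POLR2D, POLR2G, POLR2J and POLR2M. POLR2C lay 81482 bases from PTBP1 and 55259 from RUNX1, and POLR2D lay 155904 and 27686 bases away. POLR2G was the nearest, at 7101 and 7151 bases. POLR2J lay 33575 and 33304 bases away, and POLR2M 624998 and 541270. POLR2J has near copies (POLR2J2 and POLR2J3, both without a peak), so its lack of a peak is uncertain for the same reason as that of GTF2H2.

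In the Mediator head, which touches Pol II, 3 of 9 genes had PTBP1 (33.3%, against 26.4% of all genes). RUNX1 was at 2 (22.2%, against 21.3%). MED8 had both, at 29.6 from 50 fragments for PTBP1 and 18.0 from 23 for RUNX1 (chr1:43389410-43390170 and chr1:43389673-43390168), in a megabase that held 70 PTBP1 peaks for 22 coding genes. MED11 had the second highest RUNX1 value, 36.8 from 48 fragments (35.4 to 63.6), and a PTBP1 value of 22.7 from 38 fragments (chr17:4731104-4731864 and chr17:4731236-4731768). Its summits lay 1 base apart in intron 1. MED22 had PTBP1 alone, at 9.30 from 15 fragments (chr9:133346994-133347752, summit 960 bases downstream), and RPL7A started 87 bases away.

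The middle module, which links the head to the tail and the kinase module, had PTBP1 at 4 of 9 genes and RUNX1 at 1. These were 44.4% for PTBP1, against 26.4% of all genes, and 11.1% for RUNX1, against 21.3%. MED26, a subunit that recruits elongation factors, had 33.1 from 56 fragments (chr19:16627805-16628881), with the summit 748 bases downstream of the annotated 5′ end. Its canonical transcript starts 858 bases downstream, 110 bases from the summit. The overlapping coding gene ENSG00000141979, on the same strand, starts at the same place. MED1, the main contact for nuclear receptors, had 18.6 from 31 fragments, 39 bases upstream (chr17:39451013-39451449). MED19 had 12.2 from 20 fragments, 217 bases upstream (chr11:57711950-57712565). None of these had a RUNX1 peak, the nearest lying 30784, 10199 and 29201 bases away. MED10 had both peaks at low values, 9.88 from 16 fragments for PTBP1 and 9.77 from 12 for RUNX1 (chr5:6378143-6378546 and chr5:6378203-6378697).

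MED14, the scaffold that holds the modules together, was the only Mediator gene with RUNX1 alone. Its RUNX1 value was 18.0 from 23 fragments, 41 bases past the TSS (chrX:40735472-40735967), and the nearest PTBP1 peak lay 348604 bases away. In the tail, where activators dock, 2 of 7 genes had PTBP1 (28.6%, against 26.4% of all genes). MED15, whose canonical transcript starts 11697 bases further downstream, had 23.3 from 39 fragments, 3 bases past the TSS, with RUNX1 at 14.3 from 18 fragments (chr22:20495162-20496380 and chr22:20495420-20496200). MED29 had PTBP1 alone there, at 16.9 from 28 fragments (chr19:39390905-39391453). In the kinase module, MED13 was the only one of 4 genes with a TSS peak, a PTBP1 value of 12.8 from 21 fragments, with the summit 739 bases upstream (chr17:62065788-62066149).

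**Figure D3:**
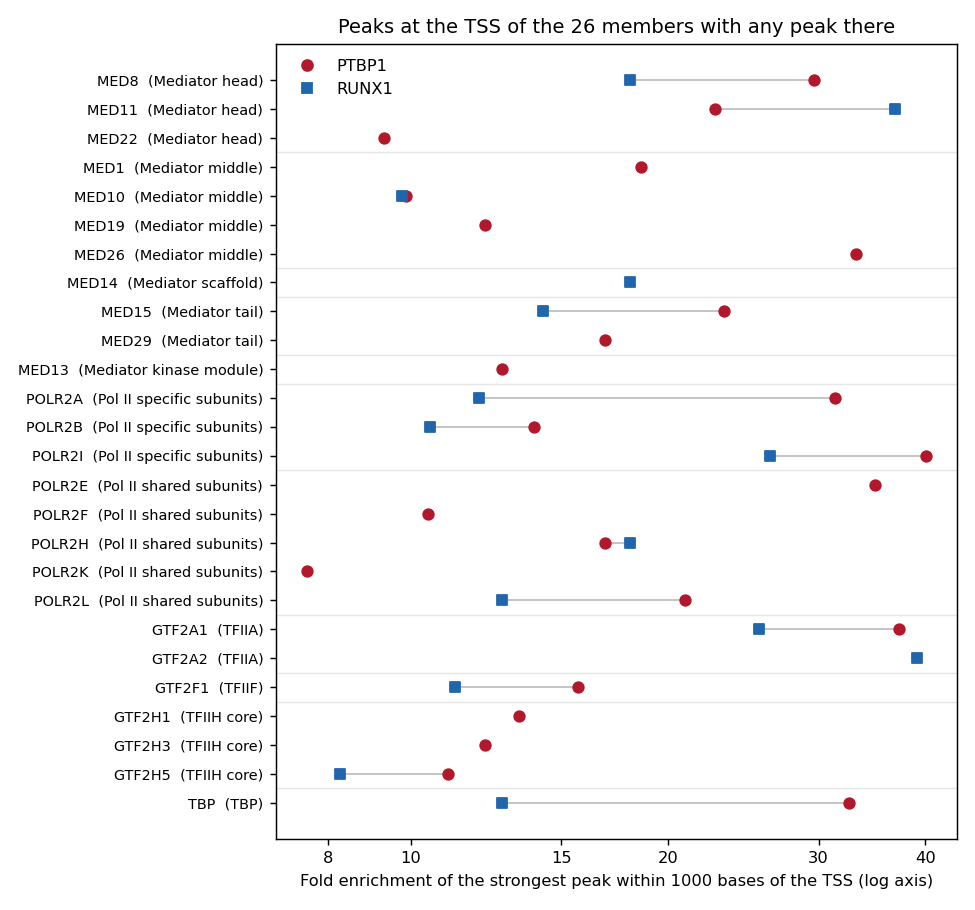
Fold enrichment (log axis) of the strongest PTBP1 (red circles) and RUNX1 (blue squares) peak within 1000 bases of the TSS of each gene with any peak there, ordered by complex; gray lines join the 13 genes with both. PTBP1 runs from 7.56 at POLR2K to 40.1 at POLR2I and RUNX1 from 8.27 at GTF2H5 to 39.1 at GTF2A2.

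Of the 30 Mediator genes, 19 had neither peak. In the head these were MED6 (208470 bases from PTBP1 and 281295 from RUNX1), MED17 (42424 and 42879), MED18 (252492 and 155731), MED20 (14917 and 13851), MED28 (37200 and 37182) and MED30 (753826 and 360822). In the middle they were MED4 (57054 and 57076), MED7 (2300413 and 412204), MED9 (19194 and 171340), MED21 (83841 and 84152) and MED31 (101476 and 8824). In the tail they were MED16 (7367 and 20446), MED23 (884557 and 288969), MED24 (37857 and 1666), MED25 (8678 and 32360) and MED27 (160648 and 161201), and in the kinase module MED12 (49832 and 49948), MED12L (321239 and 83565) and MED13L (1592907 and 279919). MED24, with a RUNX1 peak 1666 bases away, lay just outside the window. That peak lay outside the gene, and the canonical transcript of MED24 starts 6807 bases downstream of the annotated 5′ end. For 25 of the 30 genes with neither peak, no peak of either list came within 10 kb.

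The peaks at these TSSs were compared with those at the TSSs of all genes. The median fold enrichment was 16.9 for PTBP1 (24 genes), against 15.7 over all genes with a TSS peak, and 14.3 for RUNX1 (15 genes), against 15.8. Of the 24 PTBP1 values 17 were above the median of the whole PTBP1 list, and of the 15 RUNX1 values 7 were above that of the RUNX1 list. The medians over all genes with a TSS peak, 15.7 and 15.8, were themselves above the list medians of 12.2 and 15.0. The PTBP1 median was 22.7 at the 13 genes with both peaks and 12.8 at the 11 with PTBP1 alone, and over all genes it was 19.2 and 11.6. Over the 13 genes the values of the 2 lists had a Spearman rho of 0.71, and over all 3469 genes with both it was 0.56; the points share the cell line and the gene, and 11 of the 13 had the larger value for PTBP1. Fold enrichment of different lists rests on different backgrounds (0.720 fragments for PTBP1 and 0.330 for RUNX1), so this last count cannot be read as a difference in binding.

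The summits sat close to the start. The absolute distance from the TSS had a median of 185 bases for PTBP1, against 181 over all genes, and 88 for RUNX1, against 190. Relative to the annotated 5′ end, PTBP1 summits were upstream at 12 genes and downstream at 12, and RUNX1 summits at 4 and 11. The signed median was -13.5 bases for PTBP1, against -18 over all genes, and 56 for RUNX1, against 5. Of the downstream summits, both at MED15, GTF2A1 and GTF2F1 lay upstream of the canonical transcript. So did the PTBP1 summits of MED26, POLR2F, GTF2H1 and GTF2H3 and the RUNX1 summits of MED14, POLR2I and GTF2A2. The split therefore depends on which start is used. The peaks of the 2 lists overlapped at all 13 genes with both, with a median of 103 bases between summits, against 79 over all genes, and at 10 of the 13 the summits were within 200 bases. The GC content within 50 bases of the summit had a median of 66.8% for PTBP1, against 67.3%, and 65.3% for RUNX1, against 68.3%.

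**Figure D4:**
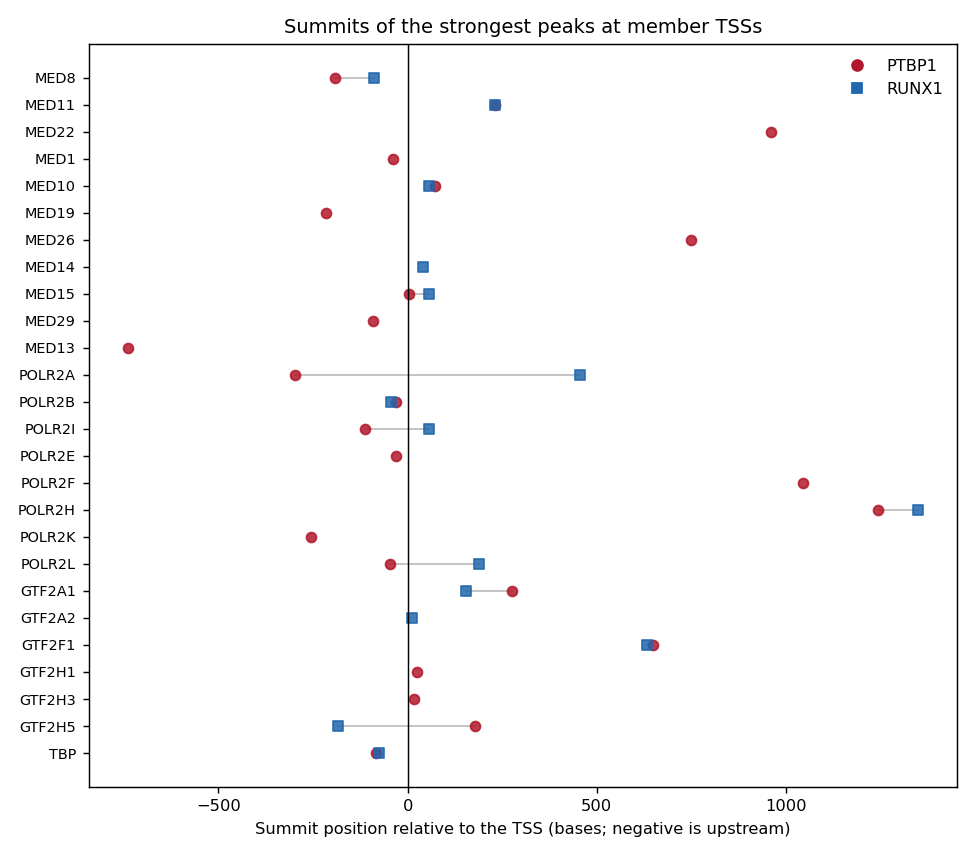
Position of the summit of the strongest PTBP1 (red circles) and RUNX1 (blue squares) peak relative to the TSS, in bases, with negative values upstream and gray lines joining summits of the same gene. Of the PTBP1 points, 18 of 24 lie within 300 bases of the TSS, and those of POLR2H lie 1243 and 1349 bases downstream.

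The sequence that RUNX proteins bind was searched as TGTGGT or TGCGGT on both strands, within 50 bases of each summit. It was found at 4 of the 15 RUNX1 summits (26.7%), against 12.7% of all RUNX1 summits at coding TSSs, and at 2 of the 24 PTBP1 summits (8.33%), against 6.99%. Within 100 bases of the summit the count at RUNX1 summits was still 4 of 15, against 21.9% of all. The 4 were at GTF2A2, POLR2I, GTF2A1 and MED14, all with TGCGGT, and the 2 were at MED29 and GTF2H1. The 30 bases around the match are shown for the genes below, in the gene's direction, with the match in capitals; ACCGCA and ACCACA are the same words read on the other strand. They lie at chr15:59657493-59657522 (GTF2A2, minus strand) and chr14:81221198-81221227 (GTF2A1, minus strand) for RUNX1, and at chr19:39391155-39391184 (MED29, plus strand) and chr11:18322319-18322348 (GTF2H1, plus strand) for PTBP1, all on hg38.
GTF2A2: tcagctcagttcTGCGGTttctgcggcggc
GTF2A1: tgcaagttcttcACCGCAaagaactgccgc
MED29: gtccggctcggaACCACAcacggattggcg
GTF2H1: ctacggcctgcgACCGCAgggccgttgcgg
The match began 19 and 7 bases past the RUNX1 summit in GTF2A2 and GTF2A1, and 45 bases before and 10 past the PTBP1 summit in MED29 and GTF2H1. GTF2A2 and GTF2A1 were also among the 4 highest in RUNX1 value. A match is a word in the DNA and not a measured site.

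Away from the TSS, 6 genes had a PTBP1 peak in the gene body (10.7%, against 12.4% of all genes) and 5 had a RUNX1 peak (8.93%, against 11.5%). Of the 15 PTBP1 body peaks, 10 lay in MED16 and POLR2E. MED16, a tail subunit, had 7 in introns 5 to 13 and none at its TSS. Their fold enrichments ran from 8.14 to 35.5, the highest with 60 fragments (chr19:871962-873177, intron 11), and the single RUNX1 body peak of MED16, at 9.02 from 11 fragments (chr19:872269-872772), overlapped it. POLR2E had 3, at 25.6 from 43 fragments (chr19:1085860-1089534, 3′ UTR), 16.9 from 28 (chr19:1090952-1093262, intron 2) and 10.5 from 17 (chr19:1089853-1090628, intron 5). It also had a RUNX1 peak in the 3′ UTR, at 12.8 from 16 fragments (chr19:1087686-1088889). MED16 lay in a megabase of chromosome 19 with 78 PTBP1 peaks for 31 coding genes, and POLR2E in the next with 120 for 39, while the list held 0.468 peaks per coding gene over the genome. The part of this dense stretch in the MED16 and POLR2E counts was not tested.

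MED29 was unlike these. Its body peaks in the 3′ UTR, 7094 bases from the TSS, had the same summit base in both lists. The PTBP1 value there was 45.3 from 77 fragments (chr19:39397343-39399212), above the 16.9 at its own TSS, and the RUNX1 value was 24.1 from 31 fragments (chr19:39397899-39398788).

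The peak of highest fold enrichment at any of the 56 genes lay in MED12L, a kinase module gene with no TSS peak. It was a RUNX1 peak of 105 from 139 fragments in intron 11 (chr3:151168851-151171518), 84840 bases from the TSS, higher than 99.2% of the RUNX1 list. It overlapped no PTBP1 peak. The nearest coding start was that of GPR171, a receptor gene inside the MED12L locus, 33090 bases away.

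The remaining body peaks were weaker than those of MED29 and MED12L. MED11 had a RUNX1 peak of 15.8 from 20 fragments in its 3′ UTR (chr17:4733125-4733509), within 1000 bases of the start of the gene ENSG00000261898. POLR2L had 2 PTBP1 peaks of 8.14 from 13 fragments each (chr11:837799-838300 and chr11:838710-839257). GTF2A1 had a PTBP1 peak of 12.8 from 21 fragments in intron 1 (chr14:81219338-81219804), and GTF2F1 had 8.14 from 13 fragments in intron 10 (chr19:6380803-6381174). The gene bodies held 5.70 PTBP1 peaks per 1000 kb, against 3.13 over all genes. Without MED16 the PTBP1 rate was 3.07, and without MED16 and POLR2E it was 1.92, both alternatives chosen after seeing the data. The RUNX1 rate was 1.90, against 2.25.

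**Figure D5:**
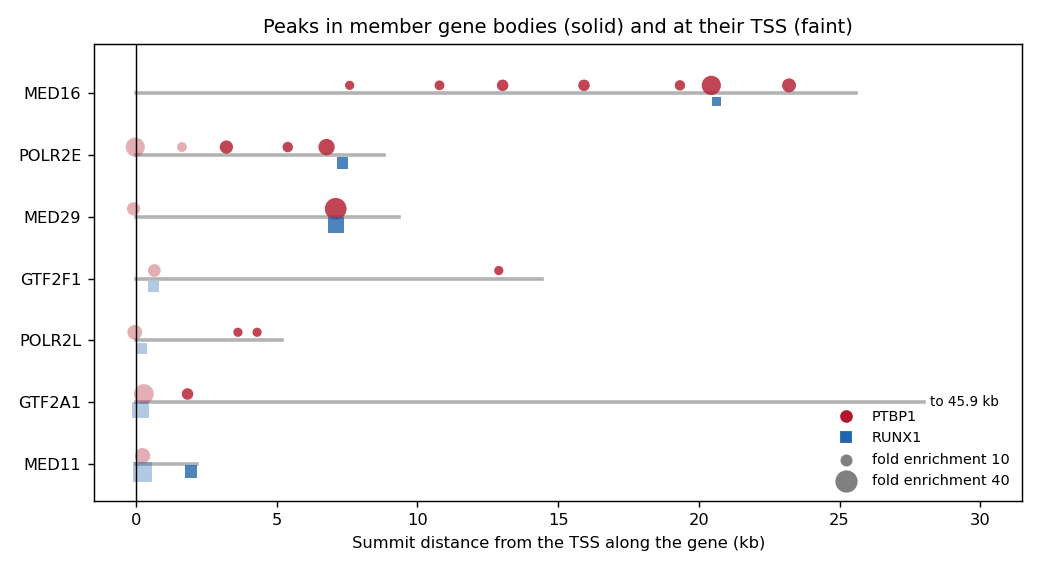
Summits of PTBP1 (red circles) and RUNX1 (blue squares) peaks along 7 genes, in kb from the TSS, with symbol area in proportion to fold enrichment, body peaks solid, TSS peaks faint and gray lines for gene length. MED16 has 7 PTBP1 body peaks and no TSS peak, and the MED29 peaks of both lists stand at the same point; the MED12L peak is not drawn.

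Chromosome 19 held 11.4% of the PTBP1 peaks and 7 of the 56 genes. PTBP1 was at the TSS of 5 of these 7 (71.4%), against 37.3% of all coding genes on that chromosome. On chromosome 17 it was at 4 of 7 (57.1%), against 39.1%.

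Related transcription genes were counted in the same way, and their shares stand beside 26.4% of all coding genes for PTBP1 and 21.3% for RUNX1; no difference was tested. Of 15 TAF genes of TFIID, 9 had PTBP1 (60.0%) and 3 had RUNX1, and this RUNX1 share was near that of all genes. TAF1, TAF2, TAF3, TAF4B, TAF7 and TAF13 had neither. Of the 3 kinase partners of Mediator, 2 had PTBP1 and 1 had RUNX1, and CDK8 had neither. The 5 helicase and kinase genes of TFIIH (ERCC2, ERCC3, CDK7, CCNH and MNAT1) had no TSS peak in either list. Of 24 pausing and elongation factor genes, 17 (70.8%) had PTBP1 and 13 (54.2%) had RUNX1, and CDC73, CTR9, EAF1, NELFCD, RTF1, SUPT6H and TCEA1 had neither. Of 19 genes for subunits of Pol I and Pol III alone, 8 had PTBP1 (42.1%) and 7 had RUNX1 (36.8%), and CRCP, POLR1E, POLR1F, POLR1H, POLR3A, POLR3C, POLR3D, POLR3F and POLR3G had neither. The 11 annotated coding genes with similar symbols outside the rule, such as the GTF2I family, TBPL1 and TBPL2, had no TSS peak. The symbol POLR2J3 has more than 1 entry among them. For near copies such as GTF2H2C, POLR2J2 and POLR2J3 the lack of a peak is uncertain for the reason given for GTF2H2.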

How the data were processed

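The members and gene lists were chosen with earlier results of these data known. For these files the authors mapped read pairs to hg38 (Bowtie2), removed duplicates and alignments of mapping quality 30 or less, and ran MACS3 with a q-value limit of 1e-07; bedtools 2.30.0 made their signal tracks. The deposited lists, 1 per target, give fold enrichment as a ratio to background and −log10 p- and q-values. Which libraries and control entered each list, and whether replicates were pooled, is not given in the sources used here; the lists were read as CUT&Tag. The 13 libraries were not analysed one by one, so their depths are unknown here.

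Fragment counts and backgrounds were solved from the deposited fold enrichment and −log10 p (largest difference in −log10 p 0.00134). Genes came from GENCODE 44 and sequence from hg38 (Python 3.11.15, pysam 0.24.0, scipy 1.17.1); the procedures were tested on simulated peaks and sequences. The strongest TSS peak stood for a gene. Every gene was classed; full values were given for POLR2A, TBP, the 5 highest and 3 lowest of each list, genes with 1 list only and genes with body peaks, and for the remaining genes with a peak. A count of promoter motifs in RefSeq promoters was void, because only 43 of 56 genes (76.8%) matched. Alternatives were other TSS windows and starts, stricter q-values, no raised background, no shared start regions, and other motif settings.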

Additional observations from a re-analysis of the deposited data

How the results depend on the processing

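No paired analysis was possible because no result came from a test and there was 1 list per target. The counts of genes with PTBP1, RUNX1, both or neither at the TSS stayed within 1.5 times under 8 of 10 alternatives (the TSS base in the peak, 500 or 2000 bases, the canonical or any coding transcript start, the summit within 1000 bases, −log10 q of at least 10, no raised background). With −log10 q of at least 20, RUNX1 fell to 8 genes (14.3%, against 13.5% of all genes) and both to 6 (10.7%, against 10.5%). Without the members that share a start region with another coding gene, 35 genes were left. Of these, 9 had PTBP1 (25.7%, against 21.8% of all such genes), 6 RUNX1 (17.1%, against 17.9%) and 4 both (11.4%, against 14.1%). The shares with RUNX1 and with both were then no longer above those of all such genes. An alternative chosen after seeing the data counted a peak only where no other coding gene started nearer its summit. It gave PTBP1 at 17 genes (30.4%, against 21.7% of all genes) and RUNX1 at 13 (23.2%, against 17.6%). Both were then at 10 (17.9%, against 13.6%) and neither at 36 (64.3%, against 74.2%). With TGTGGT alone the motif was at 0 of 15 RUNX1 summits (against 5.56% of all) and 1 of 24 PTBP1 summits (4.17%, against 3.56%). The median RUNX1 fold enrichment without shared start regions was 21.8 over 6 genes, 14.3 as reported, and so moved from below to above the 15.8 of all genes. Body peak counts stayed within 1.5 times, and the other medians of fold enrichment and summit distance ran from 14.3 to 16.9 and from 103 to 104.5 bases. With 1 list per target, no left-out replicate could be run, and a peak absent from a list shows only that none passed the threshold at that depth.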
